A study of Mus musculus with 26 samples.

Results

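The 9 genes described here, Ifit1, Ifit2, Ifit3, Isg15, Irf7, Usp18, Rtp4, Bst2 and Ifi44, are interferon-stimulated genes, chosen by their names from the 56941 genes in a count matrix of the mouse left ventricle. All 9 were present, had counts in each of the 26 libraries and passed the filter on low counts, which left 15357 genes for testing. Messenger RNA was sequenced from the left ventricle of 26 mice, 1 library per mouse. Ppp2r2a, which encodes the B55α regulatory subunit of protein phosphatase 2A, was floxed on both alleles in all of them. In the knockouts (cKO, aMHC-CreTg/0-Ppp2r2aL/L; 7 males and 7 females) the aMHC promoter drove Cre in cardiomyocytes. The controls (Ctrl, aMHC-Cre0/0-Ppp2r2aL/L; 6 males and 6 females) carried no Cre transgene. All were 12 to 16 weeks old, and all had received saline from an implanted osmotic minipump for 2 weeks, so no group was free of surgery. The labels give the strain as C57BL/6N, and the series' design text a mixed background in which the floxed line was C57BL6/N and the Cre line FVB. The design allows the effect of genotype to be estimated within either sex and compared between them. A group with the Cre transgene alone was not analysed here, so an effect of the Cre transgene and an effect of the deletion cannot be told apart.

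Type I interferons bind the receptor pair Ifnar1 and Ifnar2, whose kinases Jak1 and Tyk2 activate the transcription factor complex ISGF3. This complex binds interferon-stimulated response elements in the promoters of its target genes, whereas interferon gamma acts at gamma-activated sites. Ifit1, Ifit2 and Ifit3 are RNA-binding proteins with tetratricopeptide repeats that restrict viral translation, and Isg15 is a ubiquitin-like modifier that Usp18 removes from its substrates. Irf7 is the transcription factor that amplifies the interferon response, and Usp18 also blocks signalling at Ifnar2. Bst2 (tetherin) holds budding virions at the cell surface, Rtp4 is an interferon-induced chaperone of membrane receptors, and Ifi44 is a cytoplasmic protein induced by interferon. In the heart such genes are known for a low basal level and for a rise during viral myocarditis and after infarction.

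Promoter stretches with matches to the response element are shown because the response element is where ISGF3 binds. RefSeq windows on GRCm38.p6, from 250 bases before to 50 after each annotated start, were held for 7 of the 9 genes, not for Usp18 or Rtp4. They were searched on both strands for GAAA followed, after any 2 bases, by a further GAAA (TTTC and TTTC on the other strand), with overlapping matches counted separately. Each line runs 5′ to 3′ on the gene's strand, with 10 bases on either side, and capitals mark the matched letters.
Ifit1, chr19:34640775-34640823, + strand: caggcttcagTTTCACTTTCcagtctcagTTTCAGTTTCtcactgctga
Ifit3, chr19:34583363-34583426, + strand: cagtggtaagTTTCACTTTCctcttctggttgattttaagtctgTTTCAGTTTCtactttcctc
Isg15, chr4:156200865-156200906, - strand: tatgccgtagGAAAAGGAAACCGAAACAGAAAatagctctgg
Bst2, chr8:71537577-71537612, - strand: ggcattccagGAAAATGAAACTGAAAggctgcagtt
Ifit1 and Ifit3 each held 2 separate matches, Isg15 held 3 overlapping matches and Bst2 held 2 overlapping matches. They lay between 156 and 57 bases before the annotated start. The letters occurred in 4 of the 7 genes, and in 3.44% of all 32851 windows of this length (3.99% of 27025 genes). The window of Ifit3b, the neighbouring copy of Ifit3, held a stretch with the same letters as that of Ifit3, so reads and regulatory letters of these copies are both near-identical. Ifit2, Irf7 and Ifi44 had no match in this window. The letters of a gamma-activated site, TTCNNNGAA, were found in Ifit2 and Bst2, overlapping the response element in the latter, and in 8.3% of all windows. Of the genes most alike in expression, 3 of 8 with a window (Stat2, Ifit3b and B2m) held the response element letters and 0 of 8 the gamma-activated site letters.

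**Figure D1:**
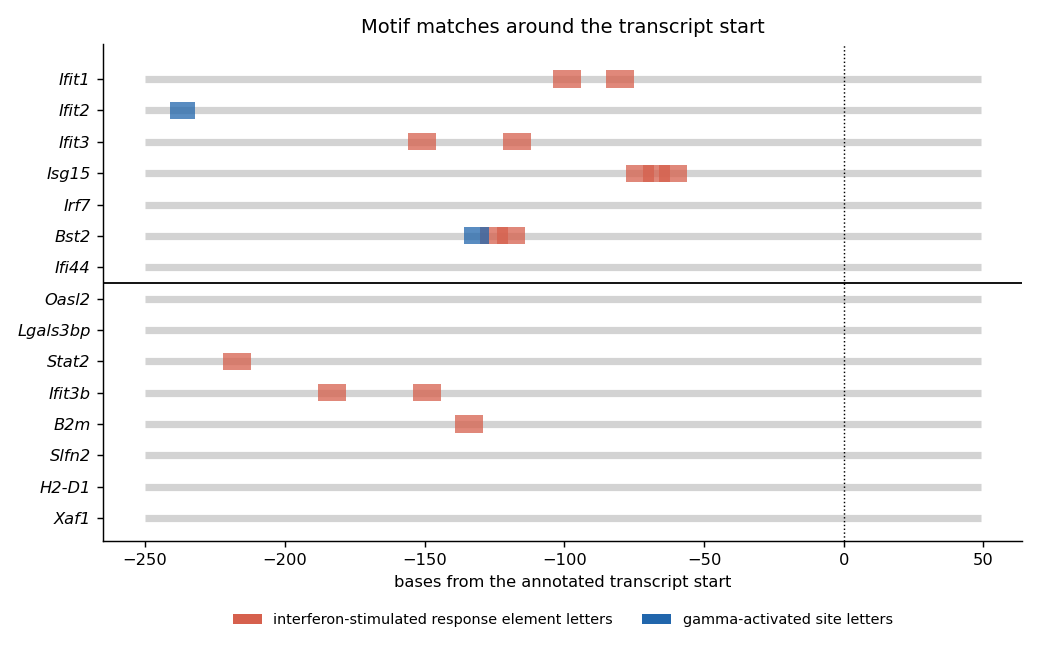
Matches to the response element letters (red) and the gamma-activated site letters (blue) from 250 bases before to 50 after the annotated transcript start (dotted line), for 7 interferon-stimulated genes (above the line) and 8 of the 10 genes whose expression was most like theirs (below). Ifit1, Ifit3, Isg15 and Bst2 hold 2, 2, 3 and 2 response element matches, all before the start.

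Total counts ranged from 14403102 to 30867399 per library, and TMM scaling factors from 0.95 to 1.06. Ppp2r2a separated the genotypes without overlap: its CPM (count relative to the TMM-scaled total of the library) ranged from 24.1 to 47.7 in Ctrl males, 11.8 to 16.2 in cKO males, 36.2 to 46.7 in Ctrl females and 9.96 to 16.2 in cKO females. The p-values given below for differences between groups set those differences against the spread between these mice. Cardiomyocyte markers were abundant in every library, with a summed level of 50400 to 70200 CPM for Myh6, Tnnt2, Actc1, Ttn, Ryr2 and Myl2. In such bulk tissue, fewer cells of a type and less RNA per cell cannot be told apart.

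All 9 genes were measured at a low but countable level. Divided by the length of the longest annotated transcript, Bst2 was the most abundant at 18.8 ± 4.69 CPM per kilobase (SD, n = 26 mice) and exceeded Ifit3, the next in order, in 26 of 26 mice. Ifit3 (3.98 ± 1.23 CPM per kilobase), Ifit2 (3.55 ± 0.667), Isg15 (3.16 ± 0.863) and Rtp4 (3.10 ± 0.842) followed within a narrow band. Their order was not fixed: Ifit3 exceeded Ifit2 in 17 mice, Ifit2 exceeded Isg15 in 19, and Isg15 exceeded Rtp4 in only 10. Irf7 stood at 2.38 ± 0.784 CPM per kilobase, above Ifit1 (1.40 ± 0.481) in 26 of 26 mice. Usp18 (1.22 ± 0.346) lay below Ifit1 in 18 mice, and Ifi44 was the lowest at 0.636 ± 0.207 CPM per kilobase, below Usp18 in 25 of 26. The lowest count of any member in any library was 21, for Ifi44.

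Each gene's levels are given in CPM below as the lowest, median and highest mouse of a group, and fold changes (cKO over Ctrl) come from edgeR's quasi-likelihood test over all 15357 genes. Ifit1, which binds viral RNA that lacks cap methylation, ran from 1.92 through 3.21 to 4.83 CPM in Ctrl males and from 1.96 through 3.69 to 6.51 in cKO males. In females it ran from 3.37 through 4.50 to 5.99 CPM in Ctrl and from 1.71 through 3.03 to 5.51 in cKO. The ranges overlapped in both sexes, although 4 of the 7 cKO females lay below every Ctrl female. The log2 fold change was 0.14 ± 0.26 (SE) in males and -0.46 ± 0.26 in females, the lowest of the 9 genes (adjusted p = 0.95). Leaving out cKO male 6 turned the male value to -0.03.

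Ifit2, a tetratricopeptide repeat protein like Ifit1 and Ifit3, was the steadiest of the 9 across mice. Its level ran from 9.20 through 12.96 to 16.8 CPM in Ctrl males, 12.1 through 13.8 to 18.8 in cKO males, 11.1 through 12.9 to 17.2 in Ctrl females and 8.10 through 12.99 to 17.1 in cKO females. Medians lay within 1 CPM of each other and every range overlapped the others. The log2 fold changes were 0.16 ± 0.15 in males, or 0.087 without cKO male 6, and -0.07 ± 0.15 in females.

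Ifit3 ran from 4.70 through 6.88 to 9.53 CPM in Ctrl males and from 4.58 through 5.84 to 11.7 in cKO males. In females it ran from 4.58 through 7.82 to 8.64 CPM in Ctrl and from 2.91 through 5.71 to 10.4 in cKO. Both the highest mouse (cKO male 6) and the lowest (cKO female 4) of all 26 were knockouts, a 4.03-fold distance that was the widest of the 9 genes. Group means nearly coincided, with log2 fold changes of -0.00 ± 0.25 in males and -0.11 ± 0.25 in females. Without cKO male 6 the male value was -0.16, and without cKO female 4 the female value was 0.019. The longest transcript of Ifit3 is 97.8% identical to Ifit3b over 1700 bases, so its counts are uncertain to the extent that the counting split reads between the copies.

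Isg15, the modifier itself, ran from 1.41 through 2.76 to 3.37 CPM in Ctrl males and from 1.49 through 2.17 to 3.42 in cKO males. In females it ran from 1.97 through 2.61 to 3.16 CPM in Ctrl and from 1.41 through 1.86 to 3.20 in cKO. The cKO median was the lower of the pair in both sexes, and the ranges overlapped, with 4 of the 7 cKO females below every Ctrl female and 1 above. Its log2 fold change was -0.24 ± 0.21 in males, -0.25 ± 0.22 in females and -0.25 ± 0.15 as the mean over both sexes (edgeR adjusted p = 0.504), with a 95% interval of -0.56 to 0.07. A 482-base stretch of its transcript is 95.2% identical to the annotated gene AC151275.1, so its counts are uncertain in the same sense.

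Usp18, the protease that takes Isg15 off proteins, ran from 1.63 through 2.03 to 2.35 CPM in Ctrl males and from 1.26 through 1.47 to 3.60 in cKO males. In females it ran from 1.77 through 2.17 to 3.08 CPM in Ctrl and from 1.19 through 2.46 to 3.34 in cKO. The ranges overlapped, but 4 of the 7 cKO males lay below the lowest Ctrl male, and cKO males 2 and 6 lay above the highest. The log2 fold change was -0.09 ± 0.22 in males and 0.03 ± 0.22 in females, the only value above 0 among the 9 genes in females. Without cKO male 6 the male value was -0.30. As the mean over both genotypes, the female over male log2 fold change of Usp18 was 0.25 ± 0.16 (edgeR adjusted p = 0.352), the smallest p of the 9 genes in any sex contrast. In cKO mice it was 0.31 ± 0.21 (edgeR adjusted p = 0.489), and without cKO male 6 it was 0.52, past an unadjusted p of 0.05 but not an adjusted one (adjusted p = 0.167).

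Irf7, the transcription factor, ran from 4.65 through 6.96 to 9.52 CPM in Ctrl males and from 3.87 through 6.70 to 14.9 in cKO males. In females it ran from 7.52 through 8.10 to 10.8 CPM in Ctrl and from 4.33 through 6.18 to 11.4 in cKO. The highest value of all 26 mice was that of cKO male 6 and the lowest that of cKO male 5, so the full range of the gene was found within 1 group. Among cKO females 4 of 7 lay below every Ctrl female and 1 above. The log2 fold change was 0.14 ± 0.25 in males and -0.27 ± 0.25 in females, and the male value was -0.09 without cKO male 6. Irf7 overlaps Phrf1 on the other strand, and the use of strand in counting is not given in the sources used here.

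Rtp4 ran from 3.91 through 5.44 to 7.34 CPM in Ctrl males, 3.70 through 4.98 to 8.79 in cKO males, 6.17 through 6.60 to 7.89 in Ctrl females and 2.43 through 6.37 to 7.72 in cKO females. Ctrl females were the tightest group, and 3 of the 7 cKO females fell below all of them. Log2 fold changes were -0.11 ± 0.21 in males, or -0.28 without cKO male 6, and -0.25 ± 0.21 in females. Rtp4 shares a 296-base identical stretch with the overlapping gene Gm45338 on the same strand, which makes its counts uncertain.

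Bst2, the tetherin gene, ran from 10.8 through 17.0 to 20.4 CPM in Ctrl males and 11.1 through 15.2 to 21.5 in cKO males, and from 12.1 through 15.5 to 18.6 in Ctrl females and 8.95 through 11.7 to 23.4 in cKO females. It was the only member whose highest mouse was not cKO male 6, since cKO female 2 stood higher. That mouse lay above every Ctrl female and 4 of the other cKO females lay below. The log2 fold changes were -0.08 ± 0.19 in males, or -0.19 without cKO male 6, and -0.17 ± 0.20 in females, or -0.34 without cKO female 2.

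Ifi44 ran from 1.17 through 2.54 to 3.15 CPM in Ctrl males and from 1.61 through 2.42 to 4.57 in cKO males. In females it ran from 2.34 through 2.58 to 3.94 CPM in Ctrl and from 1.30 through 2.22 to 3.24 in cKO. Every range overlapped, but 4 of the 7 cKO females lay below the lowest Ctrl female. The log2 fold change was 0.29 ± 0.24 in males, the highest of the 9, and -0.36 ± 0.25 in females. Without cKO male 6 the male value was 0.14. As the difference between the sexes, -0.65 ± 0.35, it had the smallest p of the 9 (edgeR adjusted p = 0.999), with a 95% interval of -1.36 to 0.07.

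**Figure D2:**
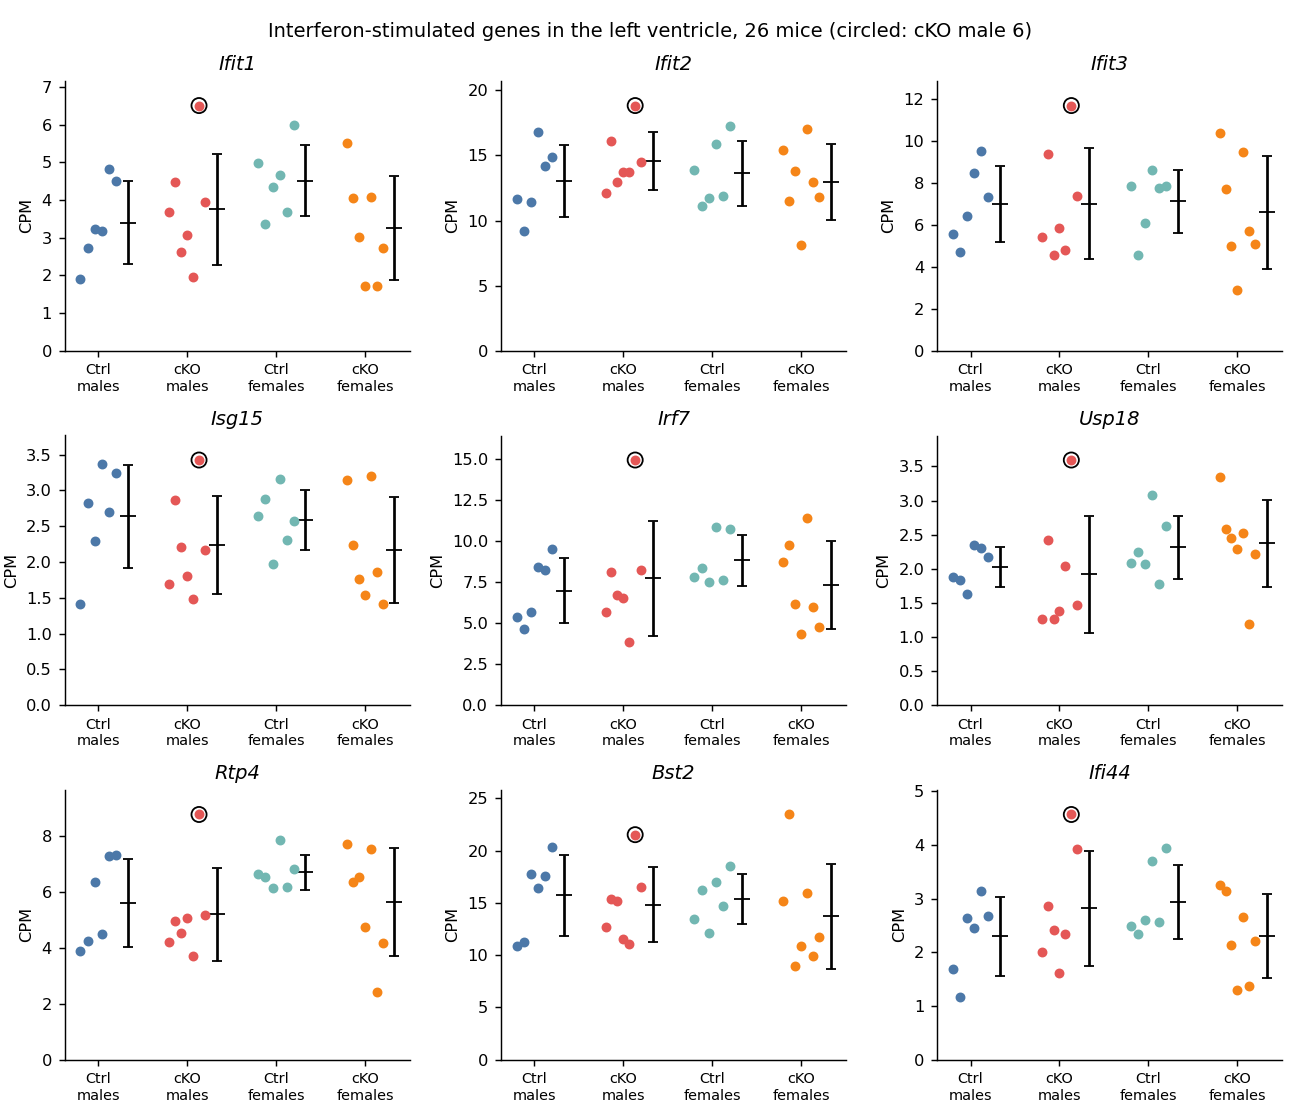
CPM of the 9 interferon-stimulated genes in each of 26 mice (points) by group, with the group mean and SD (bars); n is 6, 7, 6 and 7. All 4 groups overlap for every gene, and the circled cKO male 6 is the highest mouse for 8 of the 9 genes.

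The same cKO females, numbers 3, 4, 6 and 7, made up the 4 below every Ctrl female for Ifit1, Isg15, Irf7, Bst2 and Ifi44. The other 3 cKO females lay within or above the range of the Ctrl females in these genes. In males cKO male 6 lay above every Ctrl male in all 9 genes, and it was the only such mouse for 7 of them. Because the 9 genes varied together from mouse to mouse, these counts are not independent. The matching share over all genes was not computed.

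None of the 9 genes passed an adjusted p of 0.05 in any of the 7 contrasts fitted, with edgeR, DESeq2 or limma voom. In cKO against Ctrl males edgeR called 0 of 9 genes against 0.443% of all genes tested, and in cKO against Ctrl females 0 of 9 against 0.0326%. For the difference between these effects it was 0 of 9 against 0%, and for the mean genotype effect 0 of 9 against 1.33%. Between the sexes it was 0 of 9 against 0.638% in Ctrl, 0 of 9 against 2.7% in cKO and 0 of 9 against 7.71% for the mean sex effect. A count of 0 among 9 genes is therefore near the background in each contrast and is no result about these genes. The share of all genes that DESeq2 and voom called was 2.6% and 1.37% in males, 0.0586% and 0.026% in females, 0% and 0% for the difference and 3.57% and 2.12% for the mean genotype effect. For sex it was 1.65% and 0.82% in Ctrl, 4.6% and 4.48% in cKO and 9.69% and 8.76% for the mean.

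At an unadjusted p under 0.05 edgeR also found 0 of the 9 genes in all 7 contrasts. There it passed 13.2% of all genes in males, 5.15% in females, 3.96% for the difference, 14.1% for the mean genotype effect, 12.1% and 17.3% for sex in Ctrl and cKO, and 22.2% for the mean sex effect. DESeq2 found 0 as well. Voom found Ifit1 in females, 1 of 9 against 6.09% of all genes (log2 fold change -0.65, adjusted p = 0.775), and Ifi44 for the difference between sexes, 1 of 9 against 5.24% (-0.77, adjusted p = 0.922).

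In males 4 of the 9 genes had a fold change above 0 and 5 below, with a median of -0.00 against a median of 0.00 over all genes. Without cKO male 6 the split was 2 above and 7 below, with a median of -0.16. In females 8 of the 9 lay below 0, with a median of -0.25 against 0.00 over all genes. Without cKO female 4 it was 6 of 9, and without cKO female 6 the median was -0.12. The 9 genes varied together from mouse to mouse, so this count does not hold 9 independent directions. The widest 95% intervals reached from -0.68 to 0.79 on the log2 scale in males and from -1.0 to 0.48 in females. The standard errors differed between genes, from 0.15 for Ifit2 to 0.26 for Ifit1, and so did the changes that each interval leaves possible. Female over male values had a median of 0.19 in Ctrl (7 of 9 above 0) and -0.08 in cKO (2 of 9 above 0). The cKO direction depended on cKO male 6. Without that mouse Ifit3, Isg15 and Irf7 turned to 0.084, 0.095 and 0.16, and Usp18 and Rtp4 stayed above 0 (0.52 and 0.29). Ifit1, Ifit2, Bst2 and Ifi44 stayed below 0 (-0.017, -0.096, -0.0067 and -0.14). Ifit1 had the highest Ctrl value, 0.41 ± 0.27 (edgeR adjusted p = 0.582).

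**Figure D3:**
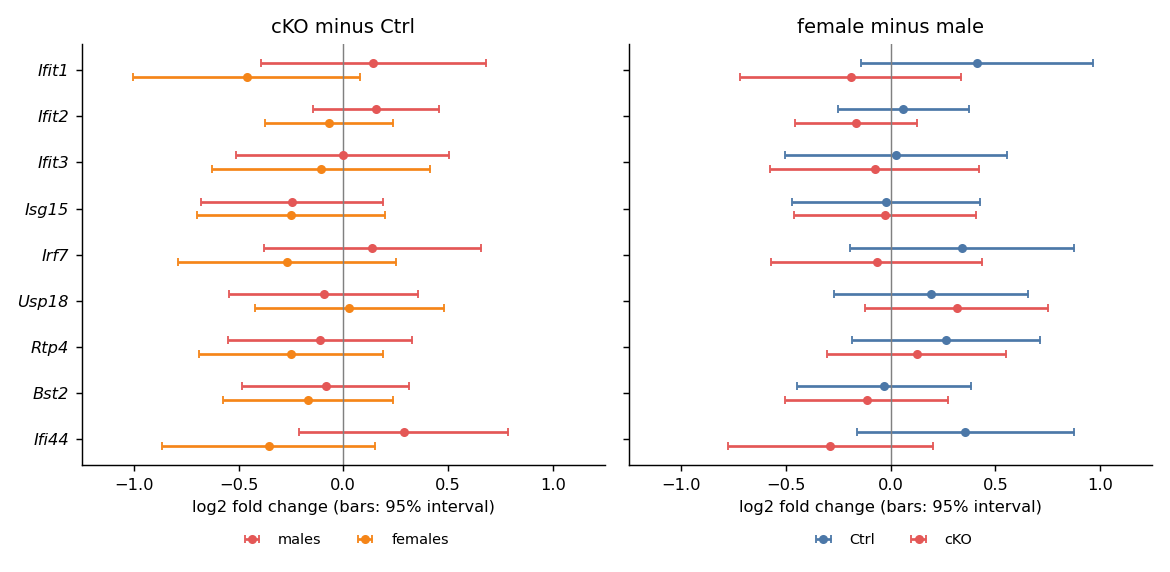
Log2 fold changes of the 9 genes from edgeR with 95% intervals (bars), as cKO minus Ctrl in each sex (left) and female minus male in each genotype (right). Every interval includes 0; in females 8 of the 9 points lie below 0, and in males 5.

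The larger differences were between mice of the same group. Across all 26 mice the highest level was between 2.32 times (Ifit2) and 4.03 times (Ifit3) the lowest. The biological coefficient of variation, the spread left after counting error, was 17.9% to 31.2% in the 9 genes. Genes of like abundance had medians of 9.82% to 18.2%, and each of the 9 varied more than 77.6% to 97% of them. Counting error alone amounted to 5.6% to 14.8%, less than the biological part in each of the 9.

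The 9 genes moved together. In 20 of 26 mice at least 8 of the 9 lay on the same side of their group means, 10 mice above and 10 below, and in 10 mice all 9 did. In cKO male 6 all 9 were the highest of their group, with a median deviation of 0.79 on the log2 scale and a summed level of 93.9 CPM. The lowest sum, 37.9 CPM, was that of cKO female 4, where all 9 lay below the group mean and the median deviation was -0.64. Mice with a high level were found in every group: Ctrl males 5 and 6, Ctrl females 4 and 6, and cKO females 1 and 5 also had all 9 genes above the mean. Low mice were likewise spread, with all 9 below the mean in Ctrl male 1 and Ctrl female 3.

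**Figure D4:**
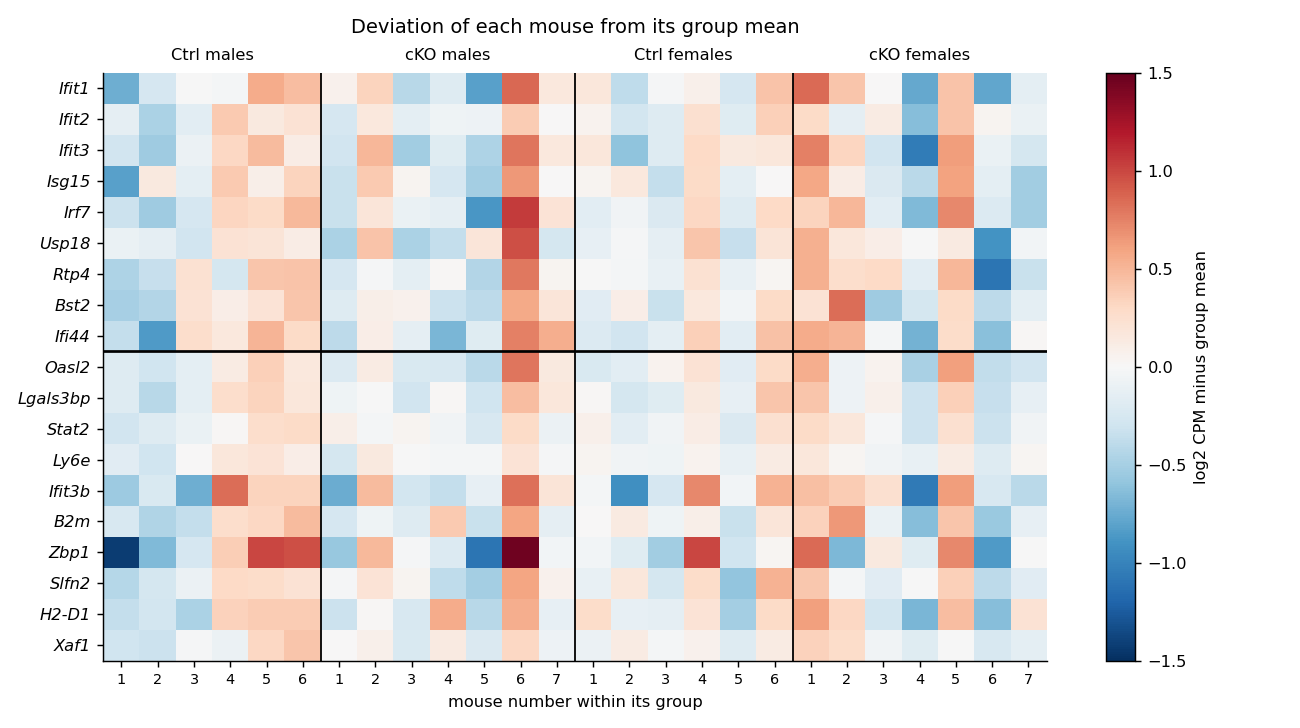
Log2 CPM minus the group mean for each of 26 mice (columns, by group) in the 9 interferon-stimulated genes (above the line) and the 10 genes most like them (below). Columns are mostly of 1 colour, with cKO male 6 the deepest red, where all 9 genes are the highest of the group.

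With group means removed, all 36 pairs of the 9 genes correlated positively over the 26 mice, with a mean Pearson r of 0.679 (0.457 to 0.828) and a mean Spearman rho of 0.679 (0.486 to 0.844). In a two-sided permutation of mice within groups (100000 resamples), all 36 pairs passed with adjustment over the 36 pairs. The largest adjusted p was 0.0402 for r and 0.0203 for rho, and the smallest p, 1e-05, is the smallest these resamples can give. Without the 2 mice farthest from the median of the first gene of each pair, r kept a mean of 0.614 (0.328 to 0.862). Ifit3 and Irf7 formed the closest pair (r = 0.828), and Ifit2 and Bst2 the loosest (r = 0.457). Irf7 was nearest to the other 8 genes (mean r = 0.756) and Usp18 farthest (mean r = 0.579). Within groups the mean r was 0.668 in Ctrl males, 0.798 in cKO males, 0.615 in Ctrl females and 0.665 in cKO females, and all 36 pairs were positive in each. Without cKO male 6 the mean over all mice was 0.62. These r values compare levels measured in the same library, so the library's scaling is shared by both genes of a pair.

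Markers of the cell types in the ventricle moved with the 9 genes. Against the mean of 5 fibroblast markers (Pdgfra, Tcf21, Dcn, Col1a1, Lum), r ranged from 0.376 (Rtp4) to 0.746 (Ifit2), and 8 of 9 genes passed a permutation test adjusted over 99 relations. For 6 macrophage markers (Adgre1, Cd68, C1qa, C1qb, Csf1r, Mrc1), r ranged from 0.394 (Rtp4) to 0.676 (Bst2), and 7 passed. For 6 cardiomyocyte markers every r was negative, from -0.732 (Bst2) to -0.375 (Rtp4), and 8 passed. The share of all genes tested that would pass against these marker means was not computed. These counts therefore do not show a trait particular to the 9 genes. Without the 2 mice farthest from the median of the interferon-stimulated gene, chosen anew for each gene, the ranges were 0.392 to 0.700, 0.445 to 0.708 and -0.752 to -0.372. Mice extreme in the marker mean were not left out. For Spearman's rho the ranges were 0.425 to 0.734, 0.412 to 0.701 and -0.803 to -0.441. Rtp4 was the gene least related to each of the 3 marker means.

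The smallest adjusted permutation p of the 99 was 0.00198, for Bst2 against cardiomyocyte markers. Endothelial markers passed with 1 gene (Ifi44, r = 0.559), smooth muscle and pericyte markers with 1 (Ifit2, r = 0.554) and the only testable plasmacytoid dendritic cell marker, Tcf4, with 1 (Ifi44, r = 0.594). Tcf4 had a median of 110 CPM, far above Siglech and Ccr9 (given below), so its relation cannot be assigned to these cells. Monocyte, T cell, B cell, neutrophil and erythroid markers passed with 0 of 9 by Pearson's r, and by Spearman's rho the monocyte marker passed with 2 and T cell markers with 1. Only 1 marker each of monocytes, B cells and neutrophils could be tested. No marker of NK cells had enough counts to be tested. Most defining markers of the immune types were at or near 0: the median of the plasmacytoid dendritic cell markers Siglech and Ccr9 was 0.167 and 0 CPM, that of the monocyte marker Ly6c2 0.154 CPM, and the neutrophil marker Ly6g had no count in any library. The monocyte marker Ccr2 was higher, with a median of 1.49 CPM, as were Cd4 at 1.12 CPM and the neutrophil marker Csf3r at 0.83 CPM. Summed fibroblast markers ranged from 570.5 to 860.8 CPM in Ctrl males, 672.2 to 902.7 in cKO males, 555 to 738 in Ctrl females and 606 to 805 in cKO females. Summed macrophage markers ranged from 133 to 215, 146 to 213, 115 to 175 and 118 to 183 CPM in the same order. In cKO male 6 both ranked 2nd of 7 in the group and cardiomyocyte markers 6th. In cKO female 4 fibroblast markers ranked 7th, macrophage markers 6th and cardiomyocyte markers 2nd. Other mice with all 9 genes on 1 side of the mean were less uniform, given in the same order of markers. Those above were Ctrl males 5 (3, 4, 3 of 6) and 6 (1, 1, 4), and Ctrl females 4 (4, 1, 4 of 6) and 6 (2, 3, 6). Also above were cKO females 1 (5, 2, 3 of 7) and 5 (1, 1, 7). Those below were Ctrl male 1 (5, 5, 2 of 6) and Ctrl female 3 (5, 4, 1 of 6).

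With the fibroblast, macrophage and cardiomyocyte means all regressed out, the 36 pairs kept a mean r of 0.534 (0.0545 to 0.823) and all stayed positive. With each removed alone the mean was 0.515 (35 pairs positive), 0.546 (36 positive) and 0.528 (35 positive). Whether the cell composition of the piece sampled set any part of the shared variation was not tested.

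**Figure D5:**
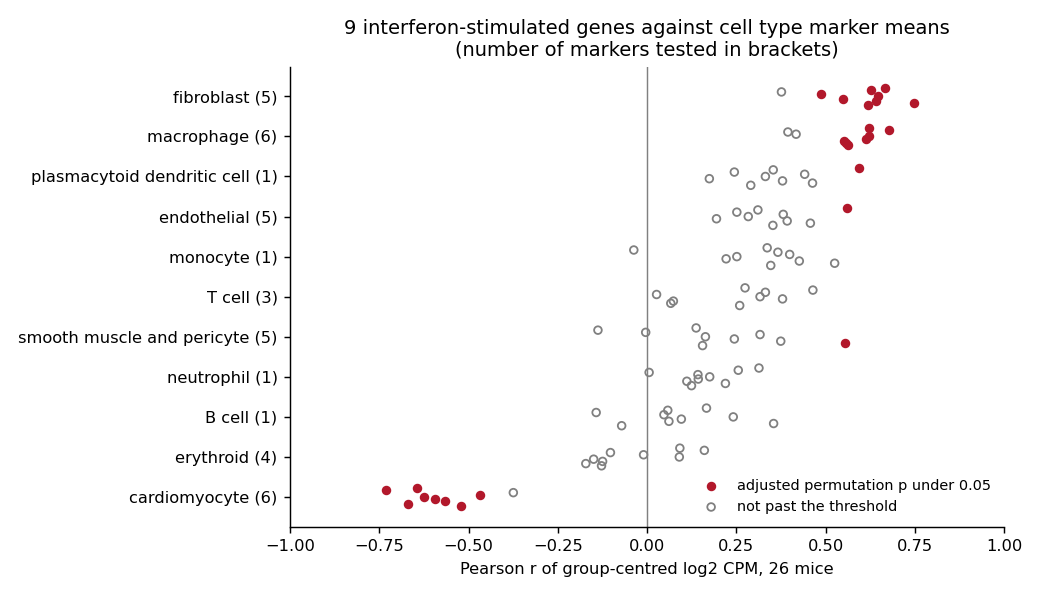
Pearson r between each of the 9 genes and the mean of each cell type's markers, after removal of group means, over 26 mice; each point is 1 gene and filled points passed an adjusted permutation p of 0.05. Fibroblast (8 of 9) and macrophage (7 of 9) relations are positive and cardiomyocyte relations (8 of 9) negative. The matching share over all genes was not computed.

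The genes whose mouse-to-mouse pattern was most like the mean of the 9 were, among 15348 others, Oasl2 (r = 0.919), Lgals3bp (0.876), Stat2 (0.864), Ly6e (0.837), Ifit3b (0.822), B2m (0.818), Zbp1 (0.818), Slfn2 (0.810), H2-D1 (0.779) and Xaf1 (0.779). They span the antiviral OAS family (Oasl2), signal transduction (Stat2), nucleic acid sensing (Zbp1) and antigen presentation by class I molecules (B2m, H2-D1). Oasl2 was highest in cKO male 6, at 13.8 CPM against 5.91 in cKO male 5, the lowest of that group. Because Oasl2 was picked by its likeness over these same mice, this is no separate observation. None of the 10 passed an adjusted p of 0.05 in any of the 7 edgeR contrasts, and none an unadjusted p of 0.05. Among the antiviral effectors of the interferon response listed for comparison, 28 of 52 (53.8%) had an r above 0.5 with the mean of the 9, against 3.06% of all other genes. The share was 41.2% for class I presentation, 40.9% for nucleic acid sensors, 37.5% for interferon gamma GTPases and chemokines, 26.1% for receptors, kinases and transcription factors, and 25% for the conjugation system of Isg15.

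The ligands were barely seen. Of 21 interferon genes, 17 had no count in any of the 26 libraries, which together allows each up to 0.00537 CPM (3 counts in 558275449, counting error only). Ifnz had 4 counts in all, Ifnk 2, Ifng 1 and Ifnab 1, and none could be tested. Of the other pathway genes listed, 134 were tested.

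Between genotypes edgeR called 0 of 134 in males and 0 in females, against 0.443% and 0.0326% of all genes. At an unadjusted p under 0.05 it passed 11 (8.21%) in males and 4 (2.99%) in females, against 13.2% and 5.15% of all genes. For the difference between the sexes it called 0, with 8 (5.97%) at an unadjusted p under 0.05 against 3.96%. DESeq2 called 1 in males (Psme1, log2 fold change -0.32, adjusted p = 0.0163) against 2.6% of all genes and 0 in females, and voom 0 in both. With edgeR, none of the 23 receptors, kinases and transcription factors was called in either sex, none of the 22 nucleic acid sensors, none of the 4 genes of the Isg15 conjugation system, none of the 52 effectors, none of the 16 interferon gamma GTPases and chemokines and none of the 17 class I presentation genes, although Psme1 passed in males without Ctrl female 6 (edgeR adjusted p = 0.0456). The median log2 fold change in females was -0.05 over all 134 genes, with 90 of them below 0, beside -0.25 for the 9 genes. By list it was -0.02 for receptors, kinases and transcription factors, 0.01 for sensors, -0.03 for the conjugation system, -0.03 for effectors, -0.31 for gamma GTPases and chemokines (14 of 16 below 0) and -0.09 for class I presentation. In males it was 0.03 over all 134, and 0.01, 0.07, 0.10, 0.05, 0.04 and -0.07 in the same order of lists. Igtp, a gamma-induced GTPase, had the smallest p of its list, with -0.85 ± 0.37 for females over males in cKO (edgeR adjusted p = 0.232) and -0.19 without cKO male 1.

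Psme1 encodes a subunit of the proteasome activator PA28, which interferon gamma induces. As the mean over both sexes it fell by 0.27 on the log2 scale in cKO (SE 0.059, edgeR adjusted p = 0.0219). It was the only 1 of 134 called in that contrast, 0.746% against 1.33% of all genes. Its r with the mean of the 9 genes was -0.068. Its level was 128 ± 16.9 CPM in Ctrl males, 103 ± 4.63 in cKO males, 128 ± 19.5 in Ctrl females and 111 ± 11.3 in cKO females (SD, n = 6, 7, 6 and 7). The other 16 class I presentation genes did not pass.

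Sex differences were called in a few pathway genes. Over both genotypes 7 of 134 (5.22%) were called against 7.71% of all genes, 3 higher and 4 lower in females. That share is below the background, so the count is no result about the pathway. Ifitm1, an effector that blocks viral entry at membranes, was higher in females at 4.39 ± 0.786 against 2.58 ± 0.568 CPM in Ctrl and 3.51 ± 0.567 against 1.81 ± 0.537 CPM in cKO (log2 fold change 0.85 ± 0.12, edgeR adjusted p = 4.57e-05). A 319-base stretch of its transcript is 97.5% identical to Gm7676, so its counts are uncertain. Among the sensors, Ifi211 and Ifi204, DNA-binding proteins of the same family, were lower in females, with log2 fold changes of -0.85 ± 0.15 and -0.52 ± 0.13 (edgeR adjusted p = 0.000669 and 0.0149). These 2 transcripts are 96.9% identical over 1363 bases, so neither can be given as certain.

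The sensor adaptor Traf3 (log2 fold change -0.20 ± 0.051) and the receptor kinase Jak1 (-0.17 ± 0.042) were also lower in females. The transcription factor Irf3 (0.12 ± 0.031) and Trim25 (0.21 ± 0.064), a ligase for Isg15, were higher. Irf3 (edgeR adjusted p = 0.02) kept its call in each fit that left out 1 mouse but lost it in 1 other alternative fit. Trim25 passed narrowly (edgeR adjusted p = 0.0454). It lost its call in 18 of the 26 fits that left out 1 mouse and in 2 other alternative fits. Among cKO mice alone 4 (2.99%) were called against 2.7% of all genes, Ifitm1 higher and Ifi211, Ifi204 and Traf3 lower. Among Ctrl mice Ifitm1 alone was called (0.746%), against 0.638%. Both shares are near the background. The Ifitm1 call in Ctrl mice was lost without Ctrl male 2, 3, 4 or 6 or Ctrl female 3, 4 or 6 (edgeR adjusted p 0.0592 to 0.0843). Its log2 fold change stayed between 0.71 and 0.86. The call of Traf3 in cKO mice was lost without cKO male 1, 2, 3, 4, 5 or 7 or cKO female 2, 4, 5 or 7, with a log2 fold change of -0.29 to -0.20.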

How the data were processed

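Stranded poly-A libraries were made from left ventricle RNA, per the labels' protocols. The authors deposited 1 matrix of whole-number counts per gene, with no normalisation. Reads had been handled with FastQC 0.74, cutadapt 4.6, STAR 2.7.11a and HTSeq on GRCm39, per the submitters' processing notes; the annotation release and strand setting are not given in the sources used here. Groups came from the labels.

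Genes were filtered at a minimum count of 10 by filterByExpr, scaled by TMM and fitted with edgeR 4.0.16 in R 4.3.3 (quasi-likelihood, 4 group means over 26 mice, Benjamini-Hochberg over 15357 genes). DESeq2 1.42.0, limma 3.58.1 voom with sample quality weights, other filters, DESeq2 size factors, fits of only the compared groups, a replicate block and the omission of each mouse were alternatives. Scripts were tested on simulated data. Correlations used log2 CPM (prior count 2) centred by group. Lengths and near-identical transcripts came from GENCODE M21 and promoter windows from RefSeq, both on an older build than the counts and used only by name.

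The 9 genes and all lists were chosen with earlier results of these data known. Named besides them are Ppp2r2a, pathway genes past an adjusted p of 0.05 or, for a list with none, its smallest p, and the 10 genes of highest likeness. No label says whether mouse numbers pair the samples, and the main fits did not pair them. Replicates differed by more than sampling noise in all 72 pairs (chi-square per degree of freedom 7.79 to 36.4).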

Additional observations from a re-analysis of the deposited data

Results flagged for a closer look

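Gaps between the highest or lowest mouse and its nearest neighbour were examined with Dixon's ratio in 36 groups (9 genes in 4 groups), where chance flags about 1 in 20. In 2 of them 1 mouse stood apart from the rest of its group. Irf7 was 14.9 CPM in cKO male 6, against 3.87 to 8.26 CPM in the other 6 cKO males. Rtp4 was 8.79 CPM in the same mouse, against 3.70 to 5.19 CPM in the others. Both values belong to the mouse with the highest level of 8 of the 9 genes.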

How the results depend on the processing

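None of the 9 genes was called in any contrast under any alternative, the replicate block included, and the smallest adjusted p was 0.119 (Usp18, mean sex effect, without cKO male 6). Of 2024 recomputed fold changes of the 9 genes in 7 contrasts, 1920 kept their direction and 104 did not, in 24 of 63 results, each within 0.144 of 0. For cKO against Ctrl without 1 mouse, the male log2 fold changes ranged from -0.032 to 0.27 (Ifit1), -0.16 to 0.10 (Ifit3), -0.094 to 0.26 (Irf7) and -0.19 to 0.0011 (Bst2), and the female ones from -0.15 to 0.016 (Ifit2), -0.25 to 0.019 (Ifit3) and -0.078 to 0.15 (Usp18). Ifit3 in males was 0.0020 with DESeq2 and 0.0068 with the replicate block, and Usp18 in females -0.095 with voom. The mean r of the 9 genes was 0.62 to 0.70 without 1 mouse, and 0.515, 0.546, 0.528 and 0.534 with fibroblast, macrophage, cardiomyocyte or all 3 marker means removed (chosen after seeing the data). Called pathway genes numbered 1 in males with DESeq2 (0 to 1 without 1 mouse), 0 for sex in Ctrl with a mean of at least 5 CPM or only the compared groups (0 to 1 without 1 mouse), 2 for sex in cKO and 4 for mean sex at 5 CPM (3 to 6 and 6 to 8 without 1 mouse), and 1 to 2 for the mean genotype effect, where Ifitm1 was added without cKO male 7. The filter at 5 CPM tests fewer genes; other causes were not tested. Same-numbered mice deviated together with a mean r of 0.0111 over 37 pairs (6 above 0.1), so the replicate block rests on a shared number only, and it moved no count of calls past 1.5 times. Counting error of 5.6% to 14.8% and 6 or 7 mice a group limit the precision.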

Other observations

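A second mouse stood apart in other interferon genes, chosen here after their values were seen. In cKO male 1 the gamma-induced GTPase genes Igtp and Irgm2 were at 69.0 and 68.9 CPM, against 7.54 to 21.5 and 10.0 to 27.5 CPM in the other 25 mice. Irgm1, of the same family, was also the highest of 26, at 29.8 against 13.1 to 24.7 CPM. Gbp2, Gbp3, Gbp7 and Gbp9, GTPases of another family, ranked 18, 18, 20 and 13 there. The 9 interferon-stimulated genes ranked 13 (Ifit1) to 24 (Usp18) of 26 in this mouse. In cKO male 6, where these 9 were high, 16 of 52 effectors and 7 of 22 sensors were the highest of all mice, but 0 of 16 gamma GTPases and chemokines.

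The SD of log2 CPM was larger in cKO than in Ctrl females for 9 of the 9 genes, with a median of 0.507 against 0.258, as it was for 52.9% of all genes. In males it was larger for 5 of 9 (44.2% of all genes), and for 2 of 9 without cKO male 6. The 9 genes vary together, so these are not independent counts, and the difference in spread was not tested.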
